A study of Mus musculus with 16 samples.

Results

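The comparison described here set glomerular libraries with much Arntl mRNA against libraries with little, within each treatment group of one diabetic mouse model. The libraries were chosen by a measured value. The 9 untreated and the 7 drug-treated libraries were ranked separately by their Arntl level. Those above the median library of their group were called Arntl-high and those below it Arntl-low. This gave 7 Arntl-high and 7 Arntl-low libraries of 16, 4 against 4 among the untreated and 3 against 3 among the treated, and the 2 median libraries were left out. The classes are ranks of one gene and not a treatment, so any difference between them is an association with Arntl.

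All 16 libraries came from mice of the genotype eNOS-/-//db/db, which lack endothelial nitric oxide synthase and, through the leptin receptor mutation, are obese and diabetic. The treated group, RAAS_blocked, drank lisinopril at 20 mg/day and losartan at 30 mg/day, which respectively stop the making of angiotensin II and block its receptor, starting at 10 to 12 weeks of age and ending at 26 weeks. The untreated group had the same genotype and no drug. Glomeruli were taken from 1 kidney after iron perfusion and pulled out with a magnet, and their total RNA was made into mRNA libraries. The labels do not say library by library that each is a separate mouse, and a p-value here reflects how far libraries of a class spread, which may be technical. The hour at which each mouse was killed is not given in the sources used here. Clock time was not tested.

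Arntl encodes BMAL1, the transcription factor at the centre of the circadian clock. With CLOCK or NPAS2 it binds E-box sequences and switches on the Per and Cry repressor genes, the nuclear receptor genes Nr1d1 and Nr1d2, and the output factors Dbp, Tef and Hlf. PER and CRY proteins then block BMAL1, while the NR1D receptors repress Arntl, Npas2 and Nfil3 through ROR response elements. Arntl mRNA and the mRNAs of E-box genes therefore peak at different times of day, in kidney as in most organs.

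The libraries were alike in breadth. Between 17993 and 18613 of the 25791 symbols were above 0 in each of the 14 libraries compared, and 16919 in RAAS_blocked replicate 4, a median library. Absolute depth is unknown, because the table holds no counts. Podocyte markers summed to between 1804 and 5512 FPKM in the 14 libraries, with Podxl listed at 0 throughout. Nos3, the gene behind the eNOS genotype, was listed at 12.1 to 43.8 FPKM in all 16 libraries. The labels do not say which part of it was deleted, so this checks nothing. Renin mRNA (Ren1) was between 443 and 1584 FPKM in 6 RAAS_blocked libraries and at 33.5 FPKM in the library labelled RAAS_blocked replicate 4, inside the untreated range of 6.92 to 263 FPKM. That library was in neither class, and fits over all 16 libraries are given with and without it. Library identifiers run in 1 block per treatment group, so a batch and the treatment cannot be told apart, whereas the classes were compared inside those blocks.

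Arntl itself is given as a description, since it made the classes. Values are FPKM, fragments scaled to transcript length and to the mapped fragments of the library. In ascending order the Arntl-low untreated libraries were at 0.906, 1.32, 1.34 and 1.49 FPKM and the Arntl-high untreated libraries at 2.03, 2.92, 3.83 and 5.33 FPKM. The Arntl-low RAAS_blocked libraries were at 1.47, 1.70 and 2.55 FPKM and the Arntl-high ones at 3.03, 3.47 and 6.46 FPKM. The dividing lines were not wide gaps. The untreated median library, at 1.95 FPKM, lay just under the lowest high library at 2.03 FPKM, and the RAAS_blocked median library, at 2.69 FPKM, lay between 2.55 and 3.03 FPKM. RAAS_blocked replicate 0, low in its own group at 2.55 FPKM, had more Arntl than the lowest high library of the untreated group.

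Npas2, which encodes the alternative partner of BMAL1, was named with the rule as a marker. It was higher in the Arntl-high class, though not every library followed the order of Arntl. Npas2 was at 0.070, 0.118, 0.109 and 0.178 FPKM in the Arntl-low untreated libraries and at 0.239, 0.483, 0.403 and 0.934 FPKM in the Arntl-high ones, each in ascending order of Arntl. In the RAAS_blocked libraries it was at 0.0912, 0.0992 and 0.228 FPKM in the low class and at 0.551, 0.321 and 0.920 FPKM in the high class. The classes did not overlap in either treatment group. Npas2 stayed under the level required for testing (1 FPKM in at least 7 libraries), and its Pearson correlation with Arntl over the 16 libraries, centred within treatment on the log2(FPKM + 1) scale, was 0.94. Arntl2, a paralog of Arntl, did not share this pattern, with a correlation of 0.05 and means of 0.710 ± 0.193 FPKM in the high and 0.683 ± 0.208 FPKM in the low untreated class (SD, n = 4 each).

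**Figure D1:**
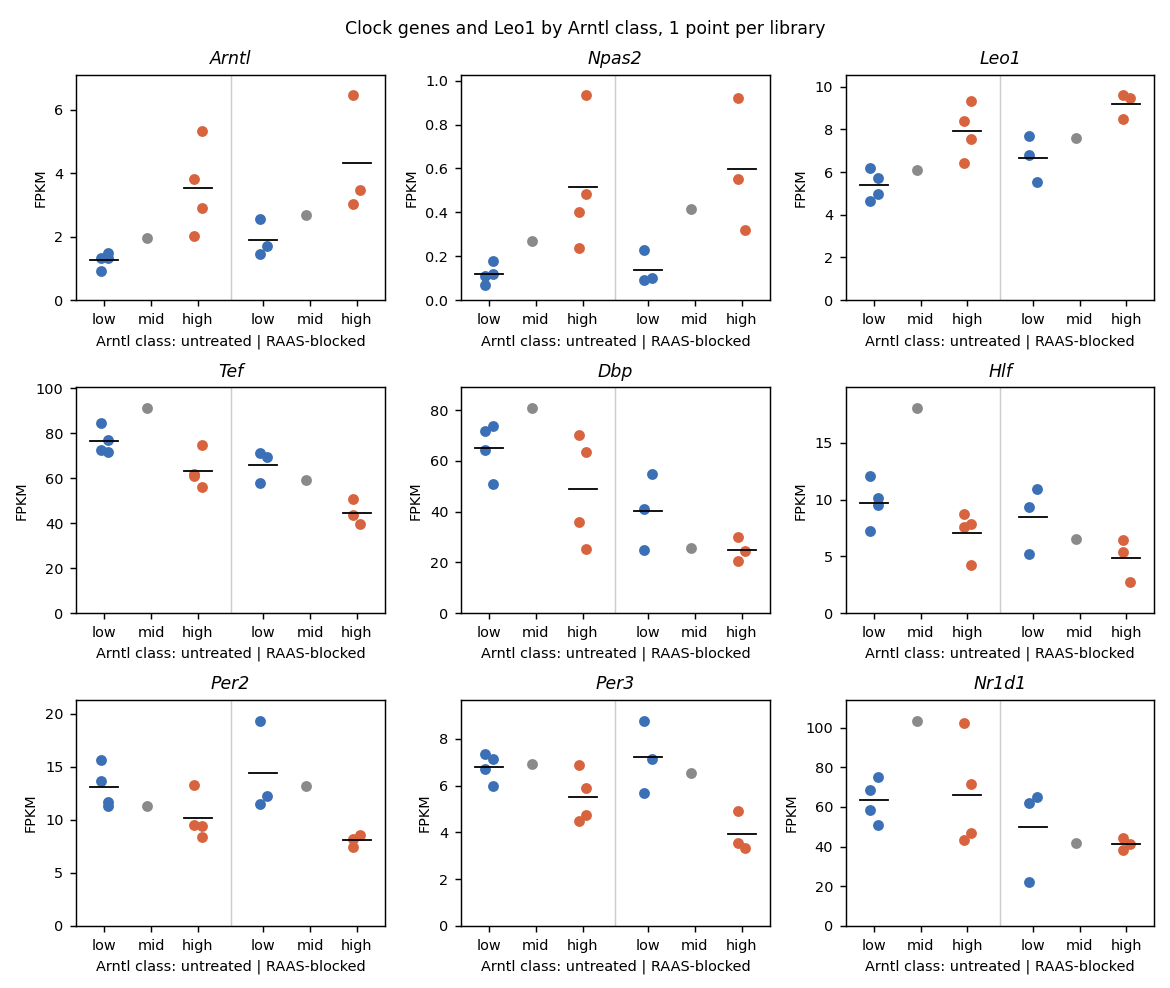
FPKM of Arntl, Npas2, Leo1 and 6 other clock genes in each library, by Arntl class (low in blue, the median library in grey, high in orange) within the untreated and the RAAS-blocked group; each axis starts at 0 and black lines are class means. Npas2 and Leo1 separate the classes in both groups, Tef, Per2 and Per3 separate them in the RAAS-blocked group only, and Nr1d1 overlaps in both.

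Across all genes, no difference between the classes passed the threshold. The limma fit on log2(FPKM + 1) with treatment as covariate called 0 of 13285 genes (0%) at an adjusted p under 0.05, and the lowest adjusted p was 0.618. At an unadjusted p under 0.05 there were 1053 genes (7.93%), of which 636 (4.79%) had the higher mean in Arntl-high libraries and 417 (3.14%) the lower. Upper-quartile scaling turned that split round, with 4.49% of all genes lower among the 7.53% at this p, so the balance of the whole list is not a result. Inside the treatment groups 0 genes passed, with 1296 and 619 at an unadjusted p under 0.05 in the untreated and the RAAS_blocked libraries, and 0 genes differed in their class effect between the groups (933 unadjusted). In these class fits none of the named genes below passed over all genes tested, so their differences are given as values, and a missed threshold does not show that the classes were alike. Where classes of 1 treatment group are said not to overlap, the share of all genes that separate there was not counted. Such statements describe the values only.

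Of the core clock genes, 17 of 20 in the table were tested, and the 6 with the lowest p all had the lower mean in Arntl-high libraries. At an unadjusted p under 0.05, these 6 of the 17 (35.3%) were lower, namely Tef, Per2, Per3, Nr1d2, Hlf and Dbp, and 0 were higher, beside 3.14% lower among all genes. Dbp was named with the rule and so is no independent member of that count. The median difference over the 17 was -0.29 on the log2 scale against 0.0040 over all genes. Inside the groups the median of the 17 was -0.041 in untreated and -0.38 in RAAS_blocked libraries, against 0.011 and 0.0094 over all genes. The untreated median thus lay near that of all genes. In both treatment groups 11 of the 17 had the lower mean, as did 22.7% of all genes, and 2 had the higher mean in both. Counting the median libraries as high left 3 of the 6 (Tef, Per2 and Per3). Leaving out any 1 of the 14 libraries left between 5 and 7. Without RAAS_blocked replicate 6, on which several cell type results below turn, all 6 stayed under that p and 11 of the 17 had the lower mean in both groups.

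The output factors came first. Tef, Dbp and Hlf encode PAR bZIP proteins that bind D-box sequences and carry the rhythm to genes of metabolism and detoxification. Tef was at 84.4, 76.9, 72.6 and 71.6 FPKM in the Arntl-low untreated libraries, again in ascending order of Arntl, and at 60.7, 74.7, 61.6 and 55.9 FPKM in the high ones. In RAAS_blocked libraries Tef was at 71.0, 69.3 and 57.7 FPKM in the low class and at 50.6, 39.5 and 43.4 FPKM in the high class. Only 1 untreated library, replicate 6 at 74.7 FPKM, reached into the low range, and the RAAS_blocked classes did not overlap. The difference for Tef was -0.40 ± 0.09 (SE, n = 7 each) on the log2 scale, with an unadjusted limma p of 0.000656 and an adjusted p of 0.618. Tef was also among the 5 genes most unlike Arntl over the 16 libraries, with a correlation of -0.76.

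Dbp showed a wider scatter around the same direction. It was at 71.6, 73.9, 64.4 and 50.8 FPKM in the Arntl-low and at 70.2, 63.5, 35.9 and 25.4 FPKM in the Arntl-high untreated libraries. In RAAS_blocked libraries it was at 24.9, 54.9 and 40.9 FPKM in the low and at 29.8, 24.5 and 20.6 FPKM in the high class. The classes overlapped in both groups, and the lowest values were in the libraries with most Arntl. The difference was -0.56 ± 0.23 (SE), given as a description, and the correlation with Arntl was -0.72. Hlf ran from 7.26 to 12.1 FPKM in the Arntl-low and from 4.23 to 8.69 FPKM in the Arntl-high untreated libraries, and from 5.25 to 11.0 FPKM against 2.77 to 6.47 FPKM in RAAS_blocked libraries. Its difference was -0.54 ± 0.20 (SE), at an unadjusted limma p of 0.0185. With the mean level of proximal tubule markers as a covariate, the Hlf difference was -0.28 at an unadjusted limma p of 0.192. Across all settings run, the estimate for Hlf lay between -0.73 and -0.086, with unadjusted limma p-values up to 0.805.

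The Period genes encode the proteins that, with the cryptochromes, close the main feedback loop. Per2 was at 15.7, 11.3, 13.7 and 11.6 FPKM in the Arntl-low and at 9.55, 8.40, 13.3 and 9.43 FPKM in the Arntl-high untreated libraries. In RAAS_blocked libraries Per2 was at 19.3, 12.2 and 11.5 FPKM in the low class and at 8.22, 8.62 and 7.43 FPKM in the high class. Among the high libraries only untreated replicate 0, at 13.3 FPKM, lay in the low range, and the RAAS_blocked classes were apart. Per3 was at 7.38, 7.13, 6.71 and 6.0 FPKM in the low and at 4.50, 5.89, 6.87 and 4.73 FPKM in the high untreated libraries. In RAAS_blocked libraries Per3 was at 8.78, 7.16 and 5.69 FPKM in the low and at 4.92, 3.35 and 3.55 FPKM in the high class. Again untreated replicate 0 was the library that crossed over. The differences were -0.51 ± 0.13 for Per2 and -0.47 ± 0.13 for Per3 (SE), with unadjusted limma p-values of 0.00233 and 0.00249.

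Per1, the family member that also responds quickly to hormones and activity, had a difference of 0.12 ± 0.25 (SE), opposite in sign to Per2 and Per3. Its values spanned 24.9 to 83.3 FPKM in the Arntl-high and 29.6 to 53.7 FPKM in the Arntl-low untreated libraries. Untreated replicate 0, the library that crossed over for Per2 and Per3, had the highest Per1 of all.

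The remaining repressors were mixed. Cry1 was at 16.01, 9.11 and 10.6 FPKM in the Arntl-low and at 7.93, 8.66 and 7.34 FPKM in the Arntl-high RAAS_blocked libraries, while the untreated classes overlapped, at 9.80 to 14.5 FPKM against 6.86 to 15.9 FPKM. The difference for Cry1 over both groups was -0.29 ± 0.18 (SE), and Cry2, its paralog, was at 0.08 ± 0.14. Bhlhe41, which competes for E-boxes, had the same layout as Cry1, with RAAS_blocked classes apart (6.92, 10.2 and 8.57 FPKM low, 5.87, 3.73 and 4.59 FPKM high) and overlapping untreated classes. Its difference was -0.74 in RAAS_blocked and -0.04 in untreated libraries, and the difference between the 2 had an unadjusted limma p of 0.0870. Gm129, the older symbol of the repressor gene Ciart, was at -0.48 ± 0.27 and Bhlhe40 at -0.10 ± 0.22.

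The nuclear receptor genes Nr1d1 and Nr1d2, whose products repress Arntl, came next. Nr1d2 was at 56.7, 48.8, 54.1 and 44.0 FPKM in the Arntl-low and at 46.6, 47.6, 39.4 and 35.8 FPKM in the Arntl-high untreated libraries. In RAAS_blocked libraries it was at 34.5, 51.8 and 46.6 FPKM against 36.9, 35.3 and 28.3 FPKM. The classes overlapped in both groups, and the difference was -0.31 ± 0.10 (SE) with an unadjusted limma p of 0.0103. Nr1d1 gave -0.06 ± 0.24 (SE), with 51.0 to 75.3 FPKM in the low and 43.0 to 102 FPKM in the high untreated libraries. Nfil3, which opposes the PAR bZIP factors at D-boxes, was the clock gene with the largest positive difference, at 0.59 ± 0.29 (unadjusted limma p 0.0687). Its values were uneven, at 1.98, 1.73, 8.12 and 2.84 FPKM in the Arntl-high and 1.42 to 1.999 FPKM in the Arntl-low untreated libraries, and the library at 8.12 FPKM stood far above the other 3. The activators Clock (0.07 ± 0.07) and Rora (0.01 ± 0.13) were near 0.

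**Figure D2:**
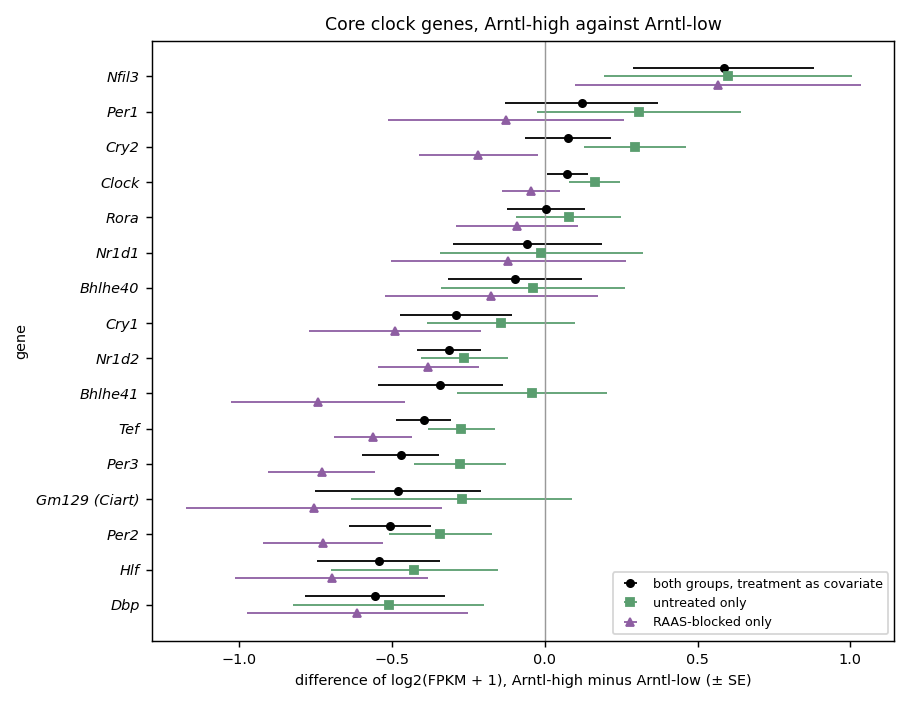
Difference in log2(FPKM + 1) between Arntl-high and Arntl-low libraries for 16 of the 17 tested core clock genes, with bars of 1 SE, over both treatment groups (black circles), in the untreated libraries (green squares) and in the RAAS-blocked libraries (purple triangles). Dbp, Hlf, Per2, Per3, Tef and Nr1d2 lie left of 0 in both groups, and Nfil3 lies right of 0 in both.

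The promoters of these genes are shown because they carry the letters through which BMAL1 and the D-box factors are known to act. Windows from 250 bases before to 50 bases after each transcription start, from RefSeq on build GRCm38.p6, were held for 14 of the 17 core clock genes; Per2 and Bhlhe40 were among those with no entry. The E-box CACGTG was found in 5 of the 14 (Tef, Per1, Cry1, Bhlhe41 and Gm129) and in 8.09% of the 27025 genes with a window. The D-box TTATGTAA was found in 1 of the 14, Per3, where it occurs at 2 positions, and in 1.11% of all genes, and TTACGTAA in 0 of the 14 and 0.126%. Both strands were searched. In the sequences below, printed 5′ to 3′ on the gene's strand, capitals mark the E-box in Tef and Gm129 and the D-box in Per3. Tef has 2 annotated starts with an E-box before each. The windows lie at chr15:81802526-81802571 and chr15:81811256-81811301 (plus strand) for Tef, chr4:151044796-151044890 (minus strand) for Per3 and chr3:95882247-95882364 (minus strand) for Gm129. A match is a description of the letters and not evidence of binding.
Tef, first start: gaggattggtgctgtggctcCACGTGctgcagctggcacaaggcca
Tef, second start: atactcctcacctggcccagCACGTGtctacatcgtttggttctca
Per3: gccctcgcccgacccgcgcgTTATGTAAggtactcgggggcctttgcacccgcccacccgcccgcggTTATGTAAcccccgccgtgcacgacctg
Gm129: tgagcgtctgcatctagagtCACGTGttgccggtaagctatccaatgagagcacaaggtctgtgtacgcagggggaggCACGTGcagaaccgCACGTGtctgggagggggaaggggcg

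Motif and direction did not line up one to one. Of the 5 genes that hold the E-box, Tef, Gm129, Cry1 and Bhlhe41 had the lower mean in both groups. Per1, which also holds it, had a difference of 0.12, at 0.31 in untreated and -0.13 in RAAS_blocked libraries. Dbp, Hlf and Nr1d2 had lower means and gave no match to the 5 motifs searched. Whether a window was held for each of these was not recorded, so a motif is not shown to be absent. The E-box variant CACGTT was found in Cry1, Cry2 and Nr1d1 and in 5.44% of all genes.

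Beyond the core clock, the gene nearest to Arntl was Leo1, which encodes a subunit of the PAF1 complex that travels with RNA polymerase II. Leo1 was at 4.66, 4.96, 6.20 and 5.71 FPKM in the Arntl-low untreated libraries and at 6.43, 7.54, 8.37 and 9.33 FPKM in the high ones. In RAAS_blocked libraries it was at 6.81, 5.52 and 7.70 FPKM in the low class and at 8.49, 9.47 and 9.61 FPKM in the high class. The classes did not overlap in either treatment group, and within the high class of each group Leo1 ranked in the order of Arntl. The class difference was 0.45 ± 0.09 (SE), with the lowest unadjusted limma p of the named genes, 0.000234, and an adjusted p of 0.618. Leo1 was also the tested gene most like Arntl, with a correlation of 0.92 over the 16 libraries.

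Using the Arntl level of all 16 libraries in place of the classes, limma called 1 gene at an adjusted p under 0.05 (0.00753% of those tested), and that gene was Leo1. Its slope was 0.46 ± 0.06 (SE) on the log2(FPKM + 1) scale per unit of Arntl on that same scale, which is not per doubling of Arntl. The adjusted limma p of Leo1 was 0.0349, and 523 genes had an unadjusted p under 0.05. With each library left out in turn the slope was between 0.43 and 0.52, but the call held in only 2 of the 16 such fits, those without untreated replicate 7 or RAAS_blocked replicate 5. Its adjusted p was 0.0505 without the library labelled RAAS_blocked replicate 4 and 0.542 without untreated replicate 8, the highest it reached. Leo1 had been listed among widely rhythmic genes with earlier results known, so it is not an independent find.

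**Figure D3:**
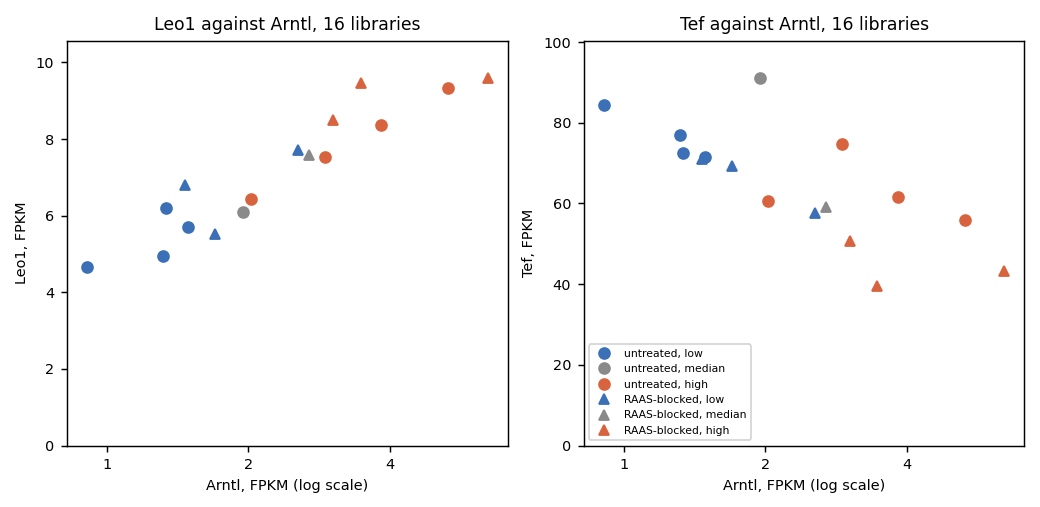
FPKM of Leo1 (left) and Tef (right) against FPKM of Arntl (log scale) in the 16 libraries; circles are untreated and triangles RAAS-blocked, and colours give the Arntl class. Leo1 climbs along Arntl from 4.66 to 9.61 FPKM, and Tef runs the other way, with the untreated median library highest at 91.2 FPKM.

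The promoters of Arntl and Leo1 are printed together because both hold a ROR response element, the sequence through which NR1D and ROR receptors are known to act on Arntl. The element was searched on both strands as GGTCA after a lead of 5 bases with A at place 1 and T at place 4, and was found in 2.87% of all genes and in 0 of the 14 core clock windows. Of the 5 tested genes most like Arntl, 4 had a window and 1, Leo1, held the element. Npas2, under the level for testing and so not among the 5, gave no match. Whether a window was held for Npas2 was not recorded. Leo1 was picked for its likeness to Arntl, and a match is not evidence of binding. Capitals mark it in the sequences below, at bases 28 to 37 after the start in Arntl and at bases -66 to -57 in Leo1. The windows are chr7:113207528-113207557 for Arntl and chr9:75441438-75441487 for Leo1, both on the plus strand of GRCm38.p6.
Arntl: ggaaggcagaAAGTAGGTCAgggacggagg
Leo1: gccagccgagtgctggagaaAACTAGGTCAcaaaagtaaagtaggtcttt

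The other genes most like Arntl were Ndor1 (correlation 0.88), Mpzl1 (0.84), Creb3l1 (0.81) and Mmp15 (0.77). Those most unlike it, beside Tef, included Snx19 (-0.80), Etaa1 (-0.77) and Dhdh (-0.76). These were picked as the extremes of all tested genes with a mean of at least 2 FPKM, so the correlations are descriptions. Creb3l1, a membrane-bound transcription factor of secretory cells, was at 10.7, 15.5, 12.8 and 18.6 FPKM in the Arntl-high against 6.08 to 8.40 FPKM in the Arntl-low untreated libraries. The RAAS_blocked classes of Creb3l1 overlapped, with 1 low library at 12.1 FPKM.

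Wee1, a kinase that holds back mitosis and a known E-box target of the clock, was among the genes with the lowest p and a lower mean. It was at 7.63, 7.14, 9.22 and 10.1 FPKM in the Arntl-low untreated libraries and at 5.31, 5.50, 6.17 and 6.04 FPKM in the high ones, which did not overlap. In RAAS_blocked libraries Wee1 was at 8.50, 4.95 and 7.61 FPKM against 5.64, 3.74 and 5.21 FPKM, with 1 low library inside the high range. The difference was -0.47 ± 0.12 (SE) at an unadjusted limma p of 0.00140. Among the 19 tested genes of the list of widely rhythmic outputs, 2 were higher at an unadjusted p under 0.05 (Leo1 and Dtx4, beside 4.79% of all genes), 1 was lower (Wee1, beside 3.14%), and the median was -0.03. Counts this small are near those shares. Other clock partners stayed close to 0. Of 14 tested kinase, ligase and partner genes, 0 had an unadjusted p under 0.05 and the median was -0.04. The 19 kidney rhythm targets, among them Sgk1, a kinase that stimulates sodium transport (-0.38 ± 0.20), gave 0 as well, with medians of -0.48 in untreated and 0.22 in RAAS_blocked libraries.

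Complete separation of the classes in both treatment groups was rare. It was seen in 7 genes with the lower values in Arntl-high libraries (0.0527% of those tested) and in 10 with the higher values (0.0753%). How many genes would separate by order alone was not tested, so these counts and names are descriptions. The 7 were Ankrd17, Eif2c3, Fndc4, Phf3, Polb, Ppm1e and Usp45, and 0 of the 17 tested core clock genes were among them. The 10 were C330006A16Rik, Fbxw8, Leo1, Lrp10, Man2c1, Memo1, Ncaph2, Ncdn, Prpf19 and Rnft2. Apart from Leo1 and Polb they fall outside the rule for named genes and were named after their values were seen. Polb, the DNA polymerase of base excision repair, ran from 22.1 to 27.7 FPKM in the high and from 28.5 to 38.6 FPKM in the low untreated libraries.

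Some genes with no place in the clock, such as Foxs1 and Aldh1a2, had larger differences than any tested core clock gene, and others with low p-values had smaller ones. Among genes with a higher mean, those with the lowest p after Leo1 included Foxs1, a forkhead factor of perivascular cells (1.01 ± 0.22, unadjusted limma p 0.000455), the syndecan Sdc1 (0.50 ± 0.11), and Aldh1a2, an enzyme of retinoic acid synthesis (0.73 ± 0.18). Foxs1 was at 9.02, 6.04, 5.51 and 9.63 FPKM in the Arntl-high against 1.85 to 4.32 FPKM in the Arntl-low untreated libraries, and overlapped in RAAS_blocked libraries. Among genes with a lower mean the lowest p-values, beside Tef, Wee1, Per2, Per3 and Polb, included the chromatin protein genes Smarca2 (-0.25 ± 0.06), Brwd1 (-0.26 ± 0.07) and Baz1b (-0.31 ± 0.08), and the protease gene Klk8 (-0.58 ± 0.15).

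The summed markers of several cell types also differed in mean between the classes, and in bulk RNA fewer cells of a type and less RNA per cell cannot be told apart. Markers of the convoluted proximal tubule, which a glomerular preparation should hold only as carry-over, had lower means in Arntl-high libraries, 9 of 12 at an unadjusted p under 0.05 (3.14% of all genes) and 12 of 12 by mean in both treatment groups (22.7% of all genes). In the RAAS_blocked group 1 library set the sign. Without RAAS_blocked replicate 6, all 12 had the higher mean there, with a median of 0.62, and 0 of 12 had an unadjusted p under 0.05 over both groups. Their summed level was 61.9 to 189 FPKM in the Arntl-high and 132 to 1584 FPKM in the Arntl-low untreated libraries. In RAAS_blocked libraries it was 20.4 to 1096 FPKM in the high and 251 to 496 FPKM in the low class. The median difference was -2.25 in untreated and -0.47 in RAAS_blocked libraries. Slc34a1, the phosphate transporter of that segment, had means of 17.7 ± 12.4 FPKM in the high and 115 ± 91.7 FPKM in the low untreated class (SD, n = 4 each).

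Markers of podocytes, the filtering epithelial cells, had the opposite sign. All 11 tested members had the higher mean in Arntl-high libraries in both treatment groups, as did 27.3% of all genes. At an unadjusted p under 0.05 there were 3 (Cdkn1c and Wt1 among them), beside 4.79% of all genes, and the median was 0.39. Here too RAAS_blocked replicate 6 set the sign in its group. Without it 3 of 11 had the higher mean there, with a median of -0.070, and 1 of 11 had an unadjusted p under 0.05 over both groups. The summed podocyte level was 2509 to 5160 FPKM in the Arntl-high and 2340 to 2622 FPKM in the Arntl-low untreated libraries, and 2313 to 5512 FPKM against 1804 to 3270 FPKM in RAAS_blocked libraries. Of 13 glomerular endothelial markers, 12 had the lower mean in both groups (22.7% of all genes) and 4 had an unadjusted p under 0.05 (Ehd3, Gata5, Kdr and Flt1; 3.14% of all genes), with a median of -0.32. Without RAAS_blocked replicate 6 these counts were 11 and 1.

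**Figure D4:**
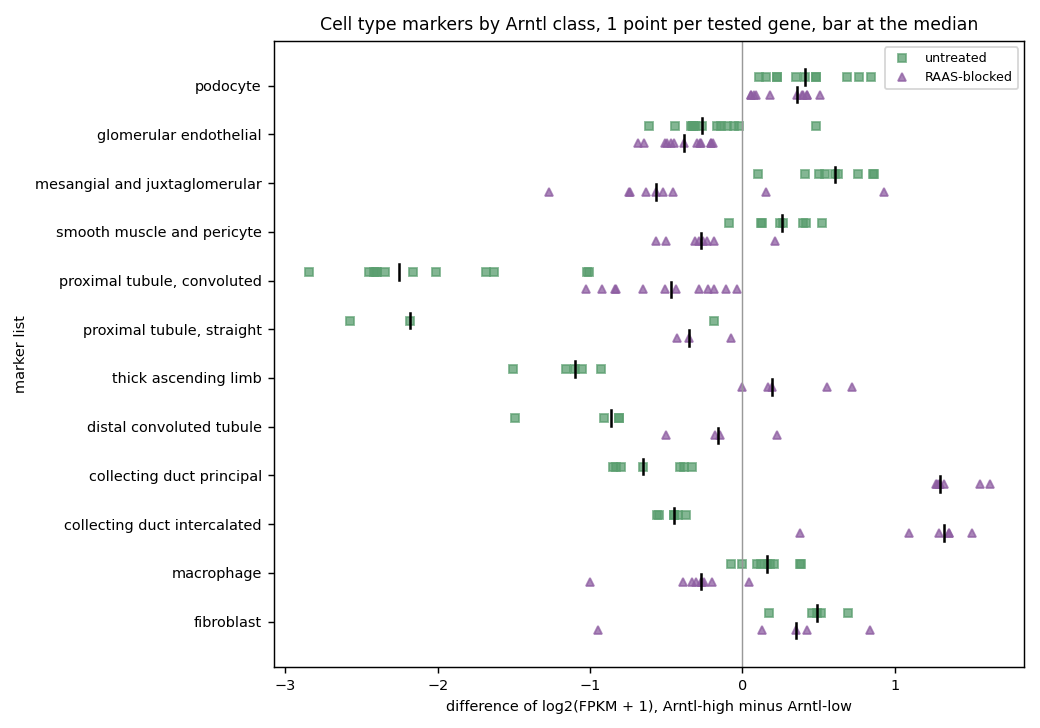
Difference in log2(FPKM + 1) between Arntl-high and Arntl-low libraries for each tested marker gene of 12 cell type lists, in untreated (green squares) and RAAS-blocked libraries (purple triangles), with black bars at list medians. Podocyte markers lie right of 0 and convoluted proximal tubule markers left of 0 in both groups, but in the RAAS-blocked group both medians change sign without replicate 6 (to -0.070 and 0.62). Collecting duct principal cell markers have medians of -0.65 and 1.29.

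Other lists pointed in different directions in the 2 groups. Collecting duct principal cell markers had a median of -0.65 in untreated and 1.29 in RAAS_blocked libraries, and the mesangial and juxtaglomerular list had 0.61 and -0.56.

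The clock differences were also fitted beside these levels. With the mean level of convoluted proximal tubule markers as a covariate, 5 of the 17 core clock genes were lower at an unadjusted p under 0.05 (Per2, Per3, Cry1, Nr1d2 and Tef), beside 2.48% of all genes. With the podocyte level as a covariate, 5 were lower (Per2, Per3, Nr1d2, Dbp and Tef), beside 1.20% of all genes. Tef had a difference of -0.37 with the tubule level and -0.38 with the podocyte level, and Leo1 had 0.38 and 0.45. Both covariate fits called 0 genes at an adjusted p under 0.05.

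Gene groups tied to the study's subject were read against the same background. Of 36 tested matrix genes, 8 were higher at an unadjusted p under 0.05 (beside 4.79% of all genes) and 0 lower, with a median of 0.19, and without RAAS_blocked replicate 6 there were 5. They included the basement membrane chains Col4a3 (0.53 ± 0.18) and Col4a4 (0.48 ± 0.16), which podocytes make, and the collagen crosslinking enzyme Lox (0.48 ± 0.13). Col4a3 was at 0.23 with the podocyte level as a covariate. The matrix median was 0.47 in untreated and -0.11 in RAAS_blocked libraries. All 12 tested cell cycle genes had the lower mean in both treatment groups, as did 22.7% of all genes, and 2, Mcm3 and Ccnd1, had an unadjusted p under 0.05, beside 3.14%. Without RAAS_blocked replicate 6 these counts were 10 and 1.

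Lipid genes gave few low p-values, read beside 4.79% of all genes higher and 3.14% lower at an unadjusted p under 0.05. Of 20 tested genes of fatty acid synthesis and desaturation, 3 were higher at an unadjusted p under 0.05 (Fads1, Srebf1 and Scd2) and 1 was lower (Me1), and without RAAS_blocked replicate 6 there were 2 and 1. Fads1, the delta-5 desaturase, was at 38.8 to 56.4 FPKM in the Arntl-high and 31.6 to 34.6 FPKM in the Arntl-low untreated libraries, with a difference of 0.38 ± 0.09. Of 19 triacylglycerol synthesis and lipid droplet genes 2 were higher (Lpin2 and Agpat3) and 0 lower, with 0 in either direction without that library. Dgat1 (0.04 ± 0.09) and Dgat2 (-0.39 ± 0.23), the final enzymes of triacylglycerol assembly, had p-values above 0.05. Of 30 fatty acid oxidation genes, many of them abundant in proximal tubule, 29 had the lower mean over both groups (48.7% of all genes did) and 1, Ppara, an unadjusted p under 0.05. The groups differed in sign, with a median of -0.36 in untreated and 0.17 in RAAS_blocked libraries, and 3 of the 30 had the lower mean in both.

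Ren1 needs its libraries named. It was at 263, 46.3, 59.9 and 39.6 FPKM in the Arntl-high and at 52.9, 25.6, 36.8 and 51.2 FPKM in the Arntl-low untreated libraries. In RAAS_blocked libraries it was at 1395, 1362 and 1584 FPKM against 765, 443 and 1289 FPKM, which did not overlap. The difference of 0.89 ± 0.38 (unadjusted limma p 0.0357) was -0.06 when the median libraries, with the lowest Ren1 of their groups at 6.92 and 33.5 FPKM, were counted as high.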

How the data were processed

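The authors deposited 1 table of FPKM values, with 25791 gene symbols and 1 column for each of the 16 libraries. Per the submitters' processing notes, the tools included Cuffdiff 2.2.1 and Cufflinks, TopHat2 2.0.8, and CASAVA 1.8.2 with FastQC, each listed with no role. The sources used here do not give the build, the annotation or the use of strand, and reads of overlapping genes cannot be told apart. FPKM holds no counts, and depth is unknown.

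Classes were ranks of Arntl within each treatment group. A gene was tested if 7 or more libraries had 1 FPKM or more (13286 genes), and Arntl was set aside, leaving 13285. log2(FPKM + 1) was fitted with limma 3.58.1 in R 4.3.3, with class and treatment as terms, a trended robust variance and Benjamini-Hochberg adjustment over all tested genes at 0.05. Differences on this scale understate changes of low genes. The fit was tested on simulated data in which each gene varied independently. Variation shared by genes of a cell type was not simulated, so that test does not cover it.

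Named genes were the tested core clock genes, the 12 lowest p-values in each direction (none passed), the leading members of each list, the 5 genes most like and 5 most unlike Arntl, and Ren1, Nos3, Scd1, Scd2, Dgat1 and Dgat2. The members, classes and gene lists were chosen with earlier results of these data known. Some genes that the rule takes are left out of the text. Promoters are RefSeq windows on GRCm38.p6. The alternatives covered the pseudocount, filter, scaling, weights, covariates, the median libraries, a replicate block and leaving out libraries. The tubule level beside the Arntl level, the Arntl-level fits without 1 library, and the lists without RAAS_blocked replicate 6, were added after seeing the data.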

Additional observations from a re-analysis of the deposited data

Results flagged for a closer look

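In 8 of 176 sets of 4 untreated libraries (88 named genes in 2 classes), the highest or lowest library stood apart from the other 3 by a gap past Dixon's critical value. Chance gives about 1 in 20 such sets, and sets of 3 libraries were not tested. Among the Arntl-high libraries, replicate 3 had 263 FPKM of Ren1, the renin gene, against 39.6 to 59.9 FPKM in the others. Klk8 was at 11.0 FPKM in replicate 0 against 6.02 to 6.37 FPKM. Replicate 6 accounted for 3 of the 8, with Cyp4a14, a fatty acid hydroxylase gene of the proximal tubule, at 0.110 FPKM against 1.07 to 1.22 FPKM, Ppara at 1.502 FPKM against 0.807 to 0.911 FPKM, and Star, which moves cholesterol into mitochondria, at 2.96 FPKM against 2.06 to 2.202 FPKM. Among the Arntl-low libraries, replicate 4 had 11.1 FPKM of Susd3 against 4.21 to 5.22 FPKM and 16.1 FPKM of Acot2 against 8.40 to 9.41 FPKM. Ndor1 was at 6.73 FPKM in replicate 5, the library with least Arntl, against 7.92 to 8.06 FPKM. None of these 8 sets belonged to a core clock gene.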

How the results depend on the processing

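The class comparison gave 0 genes at an adjusted p under 0.05 in all class fits run, and 1 gene with the Arntl level of 16 libraries. That count was 0 to 3 when 1 of the 16 was left out. Genes at an unadjusted p under 0.05 numbered 2675 with array weights, 523 with the Arntl level, 674 with the medians counted as high, 641 with the tubule and 398 with the podocyte covariate, and 491 with the tubule covariate beside the Arntl level. Leaving out 1 library gave 637 to 1603, the extremes without untreated replicates 8 and 0; it was 693 without untreated replicate 5, 666 without untreated replicate 6 and 668 without RAAS_blocked replicate 6. Core clock genes lower at this p numbered 3 with the medians counted as high.

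Whether replicate numbers pair the libraries was not settled. Correlations of same-numbered libraries ran from -0.28 to 0.43 over 7 pairs, with a median of 0.18 and 4 above 0.1. Of the 7, 2 correlated best with their own number. Correlations of differently numbered libraries were not summarized beside these. With the replicate block there were 173 genes at an unadjusted p under 0.05, 2 of them core clock genes with lower means (Nr1d2 and Dbp). Of 50 named genes with an unadjusted p under 0.05, the direction held in 1536 of 1543 gene and setting pairs. The exceptions were Ren1 (-0.061, medians counted as high), Dhcr7 (-0.016), Lox (-0.14), Cdkn1c (-0.026) and Scd2 (-0.12) under the block, and Ppara (0.060) and Slc22a6 (0.13) with the tubule covariate beside the Arntl level. The cause was not tested. FPKM without counts gives no limit of detection for low genes such as Npas2.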

Other observations

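Gene groups that vary with handling, hormones or inflammation were read in the same way, beside 4.79% of all genes higher and 3.14% lower at an unadjusted limma p under 0.05. Counts of members with the higher mean are read beside 6817 of all 13285 tested genes with the higher mean. All 18 tested interferon response genes had the higher mean in Arntl-high libraries, with 0 at that p and medians of 0.09 in untreated and 0.97 in RAAS_blocked libraries. Without RAAS_blocked replicate 6, 6 of the 18 had the higher mean over both groups and the RAAS_blocked median was -0.24.

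Of 17 tested immediate early genes, which respond within minutes to stimulation, 13 had the higher mean and 1, Jund, an unadjusted p under 0.05 (0.35 ± 0.13). Their median was 0.34 in untreated and -0.05 in RAAS_blocked libraries. Of 15 glucocorticoid responsive genes, 10 had the higher mean and 1, the triacylglycerol lipase gene Pnpla2, an unadjusted p under 0.05 (0.32 ± 0.13), with a median of 0.02. Heat shock genes, several of which follow the daily rhythm of body temperature, gave 0 of 13 at that p and a median of -0.04. Within that list the chaperone gene Hsph1 was at 10.8, 15.2, 10.5 and 15.5 FPKM in the Arntl-low and at 8.60, 8.05, 7.21 and 9.35 FPKM in the Arntl-high untreated libraries, which did not overlap, whereas the RAAS_blocked classes did. Of 10 tubular injury genes, 9 had the higher mean and 1, Timp1, an unadjusted p under 0.05 (0.78 ± 0.31), and without RAAS_blocked replicate 6 these counts were 9 and 0.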
